A study of Mus musculus with 6 samples.

Results

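Cohesin, condensin I and the cohesin acetyltransferases were followed through 10 genes that the array platform names: Esco1, Esco2, Smc1a, Smc3, Rad21, Smc2, Smc4, Ncapd2, Ncapg and Ncaph. Every probe set carrying one of these symbols was taken, which gave 26 of the 45101 probe sets on the array. The 10 genes stood among 12250 genes that were tested, and all 10 had a probe set that passed the filter on detection. They were brought together with their values in the comparison of Ring1 deletion with Control already known, Esco2 for its large difference, so those values are given as a description and support nothing.

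The study hybridised pulp RNA of young mice to 6 Affymetrix arrays, 3 labelled Ring1 deletion and 3 labelled Control. The Ring1 deletion mice were Ring1a-/-;Ring1b cko/cko ;CreERT2 and were injected with 4-hydroxytamoxifen at 40 mg/kg on postnatal days 9 and 13. Control mice were Ring1a-/-;Ring1b flox/flox ;CreERT2 and received corn oil on the same days, and pulp of both groups was taken at day 17. All 6 samples thus lacked Ring1a, drug and deletion differed together between the groups, and the promoter that drives CreERT2 is not stated in the labels. Each array is labelled a biological replicate. The errors below are those of limma, which draws the spread between a gene's replicates toward that of genes of like signal. They are therefore not the spread of a gene's own replicates alone.

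Between 53.8% and 57.9% of probe sets were called Present per array by MAS5, the software that turned probe brightness into 1 signal per probe set. Signals are on a linear scale on which each array has a trimmed mean of 500. The Rnf2 probe set used, which reads the Ring1b gene, had signals of 2831 to 3550 in Ring1 deletion and 2233 to 2693 in Control. A further Rnf2 probe set Present on all 6 arrays had 1507 to 1860 in Ring1 deletion and 1017 to 1326 in Control. Neither was called in limma, and the other 3 Rnf2 probe sets were Present on no array. Where it lies relative to the deleted part was not known, so it does not check the labels. The replicate 1 arrays of both groups stood apart in RNA quality. The ratio of the 3' to the 5' control probe set of Actb was 3.69 on Ring1 deletion replicate 1 and 6.47 on Control replicate 1, against 1.83 to 1.97 on the other 4 arrays. Markers of odontoblasts and of pulp mesenchyme were detected in both groups, 7 and 8 of those lists being tested, and so were 13 markers of dental epithelium.

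Cohesin is a ring of the proteins Smc1a, Smc3 and Rad21 that holds sister chromatids together from DNA replication until anaphase and also forms chromatin loops in cells that do not divide. Esco1 and Esco2 acetylate Smc3, Esco2 mainly during S phase, and this fixes the ring on the replicated sisters. Condensin I, made of Smc2, Smc4, Ncapd2, Ncapg and Ncaph, compacts chromosomes in mitosis. In the continuously growing incisor, dividing cells lie mainly near the base of the tooth, in both the mesenchyme and the epithelium.

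Of the 10 genes, Esco2 and the condensin I subunit Ncapg fell in Ring1 deletion, and the other 8, among them 4 of the 5 condensin genes and all 3 core cohesin genes, did not pass the test. Esco2 had 0.170 times the Control signal and the 5 condensin genes between 0.354 and 0.646 times, against 0.832 to 0.880 times for the 3 core cohesin genes. In 6 of the 10 genes, Esco2 and all 5 condensin genes, every Ring1 deletion array lay below every Control array, a separation in that direction that 8.64% of all tested genes showed. In limma across all genes with Benjamini-Hochberg adjustment at a threshold of 0.05, these 2 of the 10 were called lower, against 0.759% of all genes. None was called higher, against 1.89% of all genes. At an unadjusted p under 0.05 in limma the counts were 6 lower and 0 higher. The share of all genes at that unadjusted level was not counted. Unadjusted counts here and below therefore have no share to be set against. Of their 25 tested probe sets, 2 were called lower when the fit was run over probe sets, against 0.362% of all probe sets. With the replicate number as a block, 6 of the 10 were called lower, Esco2 and the 5 condensin genes, against 4.19% of all genes. The titles number the replicates but do not say that same-numbered arrays are pairs. The correlations between arrays, given below, do not settle how replicates 2 and 3 pair. Without Control replicate 2 none of the 10 passed in limma (5 lower and 0 higher at an unadjusted p under 0.05), with log2 differences of -2.40 for Esco2 and -1.54 for Ncapg. Whether condensin differed from cohesin was not tested, since the genes were chosen with these values known. In RNA from whole tissue, fewer cells of a type and less RNA per cell cannot be told apart.

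**Figure D1:**
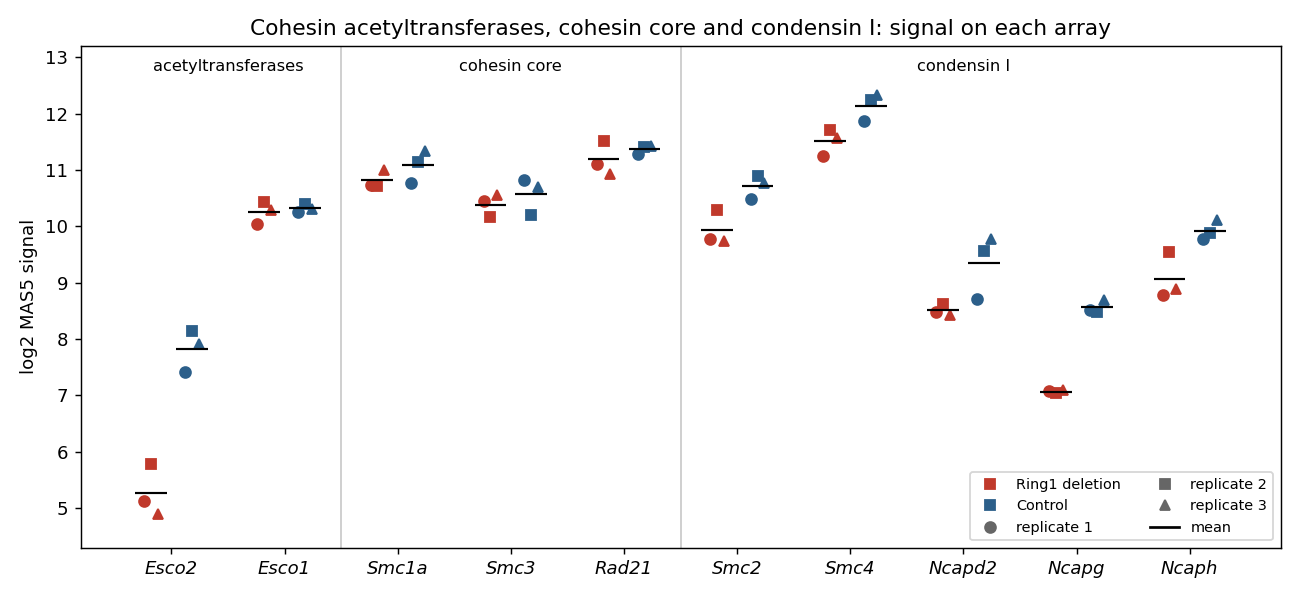
Log2 MAS5 signal of the probe set used for each of the 10 genes, with Ring1 deletion (red) left of Control (blue), 1 point per array shaped by replicate and a line at the mean. In Esco2 and the 5 condensin genes the Ring1 deletion points lie below all Control points, and in Esco1, Smc1a, Smc3 and Rad21 the groups overlap; heights are not comparable between genes.

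Esco2, the acetyltransferase that acts on cohesin at the replication fork, had signals of 35.1, 55.3 and 29.7 on the 3 Ring1 deletion arrays, against 171, 282 and 242 on the 3 Control arrays. The groups did not overlap, and the highest Ring1 deletion array, replicate 2, was still under the lowest Control array, replicate 1. The difference was -2.56 ± 0.36 (SE) on the log2 scale, and all 6 arrays were called Present. The further Esco2 probe set was called Present on no array, with signals of 1.28 to 24.5 in Ring1 deletion and 17.5 to 40.5 in Control, and it was not tested. Its name ends in x_at, the platform's mark for probes that may also read other transcripts.

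Esco1, the other acetyltransferase of vertebrates, which acts on cohesin outside S phase as well, gave another picture. Its signals were 1059, 1385 and 1246 on the Ring1 deletion arrays and 1222, 1345 and 1266 on the Control arrays. The Ring1 deletion arrays spanned the Control range on both sides, and the log2 difference was -0.06 ± 0.17 (SE). It turned to 0.04 without Ring1 deletion replicate 1. A further Esco1 probe set had 411, 579 and 540 in Ring1 deletion and 408, 862 and 865 in Control. There the Control arrays did not agree among themselves, replicate 1 being low, and the log2 difference was -0.42 ± 0.31 (SE).

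The 3 core cohesin genes had means slightly lower in Ring1 deletion, with overlapping groups. Smc1a, 1 of the 2 coiled-coil ATPases of the ring, had 1697, 1686 and 2042 in Ring1 deletion and 1744, 2258 and 2579 in Control, a log2 difference of -0.27 ± 0.19 (SE). Smc3, its partner and the target of the acetyltransferases, had 1396, 1147 and 1497 in Ring1 deletion and 1800, 1173 and 1669 in Control, a log2 difference of -0.19 ± 0.21. Rad21, the kleisin that closes the ring and is cut at anaphase, had 2201, 2939 and 1958 in Ring1 deletion and 2496, 2721 and 2748 in Control, a log2 difference of -0.19 ± 0.19. Each of these differences was close to the size of its standard error or under 1.5 times it. The 5 further probe sets of these genes differed by -0.23 to -0.01 on the log2 scale, so all 8 cohesin probe sets had a lower mean in Ring1 deletion and in none of the 8 were the groups apart. The log2 difference of Smc3 turned to 0.02 when arrays were weighted by quality. None of the 3 passed at an unadjusted p under 0.05 in limma.

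Of the 5 condensin I genes, 1 fell in limma, Ncapg, and the other 4 had lower means without passing. Ncapg, a HEAT-repeat subunit, had signals of 134, 131 and 137 on the Ring1 deletion arrays, against 368, 356 and 415 on the Control arrays. Replicates lay close together in both groups, and the log2 difference was -1.50 ± 0.21 (SE), with a Present call on 2 of 3 Ring1 deletion arrays and on all Control arrays. Its further probe set had 78.1, 205 and 167 in Ring1 deletion and 250, 248 and 359 in Control, again without overlap, at -1.02 ± 0.37. That second probe set replaced the first when a Present call on all 6 arrays was required, and Ncapg then did not pass.

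Ncapd2, the other HEAT-repeat subunit, had 357, 395 and 346 in Ring1 deletion and 420, 754 and 872 in Control, a log2 difference of -0.83 ± 0.28 (SE). The Control arrays were the uneven ones here, since Control replicate 1 came within a small step of the highest Ring1 deletion array. Without that array the log2 difference was -1.15 and Ncapd2 passed. Ncaph, the kleisin of condensin I, had 438, 746 and 473 in Ring1 deletion and 872, 941 and 1113 in Control, a log2 difference of -0.85 ± 0.24. The name of that probe set ends in x_at, so it may also read other transcripts. The further Ncaph probe set, without this mark, differed by -0.56 ± 0.20, also with no overlap between the groups.

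The 2 ATPases Smc2 and Smc4 are shared by condensin I and condensin II. Smc2 had 873, 1253 and 856 in Ring1 deletion and 1429, 1892 and 1755 in Control, a log2 difference of -0.78 ± 0.21 (SE). Smc4 had 2446, 3353 and 3039 in Ring1 deletion and 3716, 4841 and 5137 in Control, a log2 difference of -0.63 ± 0.19. In both genes Ring1 deletion replicate 2 was the highest of its group and Control replicate 1 the lowest of its own. The 3 Smc4 probe sets lay within 0.09 of each other, from -0.64 to -0.54, each without overlap.

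Smc2 was the gene whose probe sets disagreed. Its 5 tested probe sets ran from -1.51 ± 0.98 to 0.03 ± 0.36 (SE) on the log2 scale. Both extremes were Present on only 1 of 3 Ring1 deletion arrays, and the other 3 lay between -1.25 and -0.78. The probe set at -1.51 had 4.87, 99.2 and 79.4 in Ring1 deletion and 86.6, 119 and 86.0 in Control, so its mean rests on Ring1 deletion replicate 1. Over all condensin genes, 13 of 14 tested probe sets had a lower mean in Ring1 deletion, against 44.2% of all probe sets. In 10 of the 14 every Ring1 deletion array lay below every Control array, against 6.79% of all probe sets.

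**Figure D2:**
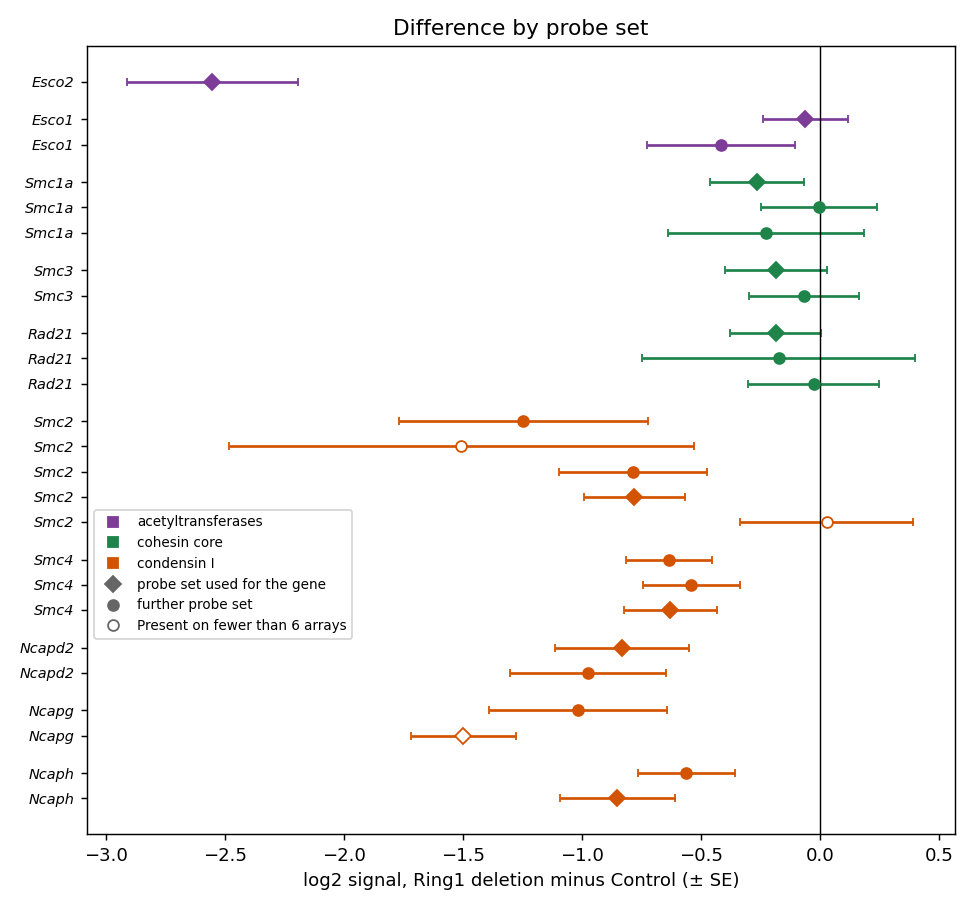
Log2 difference, Ring1 deletion minus Control, with its SE for each of the 25 tested probe sets, grouped by gene and coloured by complex; diamonds mark the probe set used for the gene and open symbols those Present on fewer than 6 arrays. The 8 cohesin probe sets lie between -0.27 and -0.01, and 13 of the 14 condensin probe sets lie below 0.

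The arrays of a group were not equal in these genes. Ring1 deletion replicate 2 was the highest of its group in 5 of the 6 genes without overlap (Ncapg was the exception), and Control replicate 1 was the lowest of its group in 5 of 6. In a list of 22 tested genes of G2/M and mitosis, Ring1 deletion replicate 2 was the highest of its group in 20 and Control replicate 1 the lowest of its own in 20. Relative to the Control mean, the median of that list was -1.75, -0.79 and -1.51 on Ring1 deletion replicates 1, 2 and 3, and -0.37, 0.07 and 0.37 on the Control replicates in the same numbering. Of the 22 genes, 8 fell in limma, against 0.759% of all genes, and 20 with the replicate block, against 4.19%. The median log2 difference was -1.36, beside 0.02 over all genes tested. In limma without the block, leaving out Control replicate 1, 2 or 3 gave 10, 2 or 3 instead of 8. Leaving out Ring1 deletion replicate 1, 2 or 3 gave 4, 13 or 3. In a list of 23 tested genes of G1/S and DNA replication, 7 fell in limma and 17 with the replicate block, beside the same shares of all genes. Leaving out Control replicate 2 or 3 gave 0 in limma without the block (14 and 13 lower at an unadjusted p under 0.05). The number was 1 without Ring1 deletion replicate 1 or Ring1 deletion replicate 3, 5 without Control replicate 1 and 8 without Ring1 deletion replicate 2. Without limma's intensity trend 4 of the G2/M list and 2 of the G1/S list fell.

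The median of 13 markers of dental epithelium was -1.16, -0.64 and 0.64 on Ring1 deletion replicates 1, 2 and 3 relative to the Control mean. It is a list of cell type markers and does not gauge dividing epithelial cells. The summed signal of these markers ran from 56528 to 202879 in Ring1 deletion and from 132034 to 178736 in Control. In limma 2 of the 13, Shh and Sp6, fell (1 without Control replicate 2), against 0.759% of all genes. With the replicate block 5 were lower and 1 higher, against 4.19% and 6.44% of all genes. The median log2 difference of the list was -0.49, with -1.29 between the replicate 1 arrays and 0.19 without them. On Ring1 deletion replicate 3, 8 of the 13 markers lay above all Control arrays and 3, Shh, Mmp20 and Sp6, below all of them. The 8 were Amelx, Ambn, Enam, Amtn, Odam, Klk4, Krt5 and Krt14, and Epcam and Cdh1 lay within the Control range. Within the Ring1 deletion group Esco2, Ncapd2 and Smc2 were lowest on that array, Ncapg was highest there, and Smc4 and Ncaph lay between. Of 7 neutrophil markers, 4 were tested and their summed signal was 200.2 to 563 in Ring1 deletion and 725 to 2867 in Control, with Camp and Elane Present on no array. The median log2 difference of the 4 was -1.58, and S100a9 fell (-2.87 ± 0.49 (SE), limma adjusted p = 0.0188). With the replicate block 2 of the 4 were called lower, and none passed without Control replicate 2 or without Ring1 deletion replicate 2 (2 lower at an unadjusted p under 0.05 in limma in each case). The part of these cells in the differences was not tested. With both replicate 1 arrays left out, the median log2 difference of the 10 genes was -0.71, and it was -0.49 between the replicate 1 arrays, the same sign in both sets of arrays. The lists of odontoblast, pulp mesenchyme, endothelial, macrophage and Schwann cell markers had median log2 differences of -0.13 to 0.20. None of these markers was called without the replicate block. With it 1 odontoblast marker was lower and 1 higher, and 2 pulp mesenchyme and 2 macrophage markers were higher. The Schwann cell median is that of 2 genes, with -1.73 between the replicate 1 arrays and 0.66 without them.

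**Figure D3:**
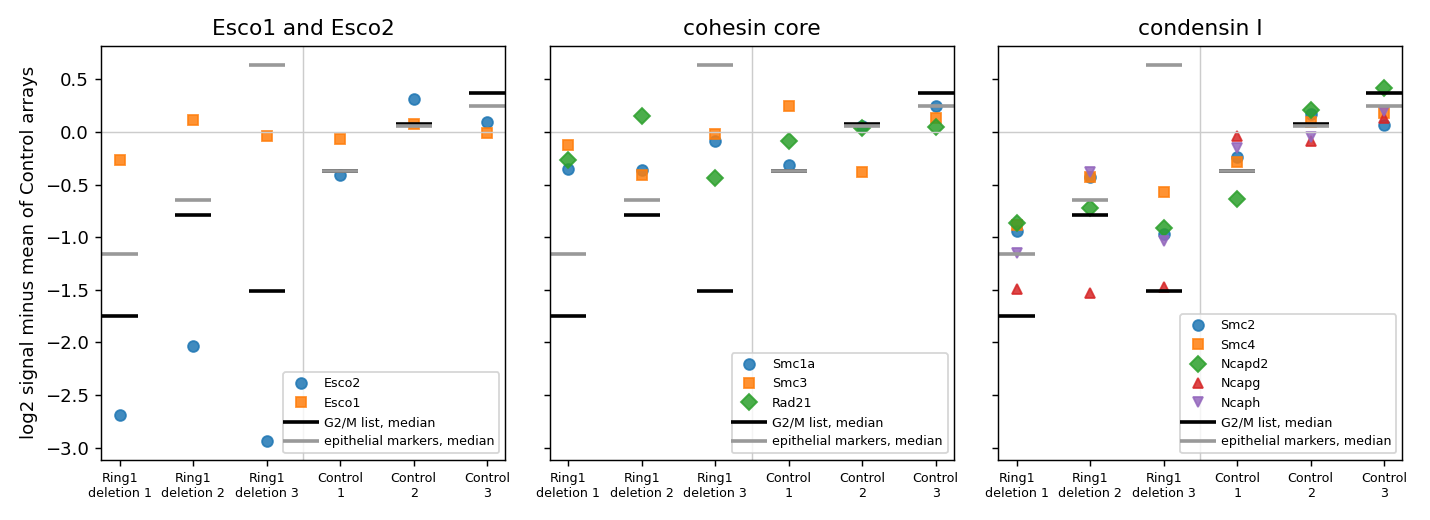
Log2 signal of each gene minus the mean of the Control arrays (vertical axis) on each of the 6 arrays, Ring1 deletion left of Control, in 3 panels, with the medians of the G2/M list (black bars) and of the epithelial markers (grey bars). On all Ring1 deletion arrays the condensin genes and Esco2 lie below 0. On Ring1 deletion replicates 1, 2 and 3 the G2/M median is at -1.75, -0.79 and -1.51. The epithelial median is at -1.16, -0.64 and 0.64 on these arrays, with 5 of the 13 epithelial markers below the Control mean on replicate 3.

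The stretches of 250 bases before the annotated start were read for the 6 of the 10 genes in a RefSeq promoter table of build GRCm38.p6, to set the condensin genes beside the cohesin genes on a feature that the arrays did not supply. Many mitotic genes carry a CHR element, often with CCAAT boxes, and many S-phase genes carry E2F sites. Both strands were searched for the letters TTTGAA and, as the other form of CHR, TTCGAA. The CCAAT box was searched by its own letters, and E2F by TTNNCGC with each N being C or G. Of 32841 promoters in the table, 17.1% held a CHR match, 33.9% a CCAAT match and 7.89% an E2F match in this stretch. Esco1, Esco2, Rad21 and Smc4 had no sequence there, so the cohesin genes read were Smc1a and Smc3 only. CHR matches were found in Ncapd2, Ncapg and Smc2 but not in Ncaph, Smc1a or Smc3. These are letters that match and not shown sites.

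The stretches of the 3 condensin genes with a CHR match are printed with that of Smc3, which held none of the motifs, each 5′ to 3′ on the strand of the gene with matches in capitals. They are chr6:125191587-125191836 (minus strand) for Ncapd2, chr5:45669675-45669924 (plus strand) for Ncapg, chr4:52438971-52439220 (plus strand) for Smc2 and chr19:53600146-53600395 (plus strand) for Smc3.
Ncapd2: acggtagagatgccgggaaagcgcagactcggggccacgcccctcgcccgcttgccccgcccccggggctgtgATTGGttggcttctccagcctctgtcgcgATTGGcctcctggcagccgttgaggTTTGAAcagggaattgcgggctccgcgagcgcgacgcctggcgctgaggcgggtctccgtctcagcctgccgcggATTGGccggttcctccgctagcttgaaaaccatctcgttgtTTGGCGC
Ncapg: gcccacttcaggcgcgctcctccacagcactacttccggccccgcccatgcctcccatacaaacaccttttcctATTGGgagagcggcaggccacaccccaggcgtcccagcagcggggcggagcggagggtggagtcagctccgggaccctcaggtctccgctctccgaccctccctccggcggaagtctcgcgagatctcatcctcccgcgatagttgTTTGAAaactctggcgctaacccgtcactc
Smc2: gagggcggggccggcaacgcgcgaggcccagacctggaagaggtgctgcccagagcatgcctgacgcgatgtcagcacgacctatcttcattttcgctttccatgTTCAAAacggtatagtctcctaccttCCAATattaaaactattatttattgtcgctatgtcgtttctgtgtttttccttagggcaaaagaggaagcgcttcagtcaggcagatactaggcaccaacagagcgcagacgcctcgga
Smc3: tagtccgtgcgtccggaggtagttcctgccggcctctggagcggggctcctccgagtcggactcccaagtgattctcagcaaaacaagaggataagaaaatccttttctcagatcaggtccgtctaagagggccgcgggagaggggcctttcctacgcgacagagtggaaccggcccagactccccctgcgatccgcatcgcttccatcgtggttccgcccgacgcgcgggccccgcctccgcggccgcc
Ncapd2 held 3 CCAAT matches, a CHR match and an E2F match that ends at the last base before the start. Ncapg held a CCAAT match and a CHR match at 30 to 25 bases before the start. Smc2 held a CCAAT match and, at 145 to 140 bases before the start, a CHR match on the other strand. Smc1a held a CCAAT match, and Ncaph, whose mean signal was lower in Ring1 deletion but did not pass, held none of the 3 motifs.

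The other genes of cohesion and chromosome structure were taken as 7 lists with 34 tested genes. Of these, 3 fell and none rose in limma at an adjusted p under 0.05 (12 lower and 1 higher at an unadjusted p under 0.05), and 11 fell and 1 rose with the replicate block, against 4.19% and 6.44% of all genes. The 3 were Cdca5, Top2a and Mki67, and 29 of the 34 had a lower mean in Ring1 deletion. Over all genes 47.5% had a lower mean.

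Cdca5 encodes sororin, which binds acetylated cohesin and keeps it on the sisters. It had 197, 219 and 182 in Ring1 deletion and 626, 488 and 685 in Control, without overlap. The fall was -1.58 ± 0.22 (SE) as a log2 difference, with a limma adjusted p of 0.00778. The other 6 tested genes that load, release or position cohesin did not pass, and without Mau2 they lay between -0.19 and 0.15 on the log2 scale. Mau2, part of the cohesin loader with Nipbl, had 1153, 1294 and 919 in Ring1 deletion and 545, 723 and 593 in Control. Its log2 difference was 0.85 ± 0.20, which did not pass (limma adjusted p = 0.0642), although the fit with the replicate block called it higher. The loader subunit Nipbl differed by 0.15 ± 0.30, and Wapl, which opens the ring, by 0.02 ± 0.23. Of the further cohesin subunits, 3 were tested, and none passed (0 at an unadjusted p under 0.05 in limma). Stag2 differed by -0.17 ± 0.20 and Rec8, the meiotic kleisin, by -0.23 ± 0.28.

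None of 4 genes that cut or shield cohesin passed (3 lower at an unadjusted p under 0.05 in limma). All 4 had every Ring1 deletion array below every Control array, as 8.64% of all tested genes did. Sgo1, a shugoshin that protects cohesin at centromeres, was Present on no Ring1 deletion array and on all Control arrays. It had 99.3, 115 and 15.5 in Ring1 deletion against 309, 358 and 441 in Control. Sgo1 was thus 6.50-fold lower in Ring1 deletion (limma adjusted p = 0.073). Taking an undetected signal at no less than the lowest detected one left this value at 6.50-fold. The value rests on Ring1 deletion replicate 3, the array at 15.5, and was 3.42-fold without it. The log2 difference of Sgo2a, another shugoshin, was -1.05 ± 0.25 (SE; limma adjusted p = 0.0651). With the replicate block 3 of the 4 were called lower.

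Among 6 tested genes that act in cohesion at the replication fork none passed (2 lower at an unadjusted p under 0.05 in limma), and 3 were called lower with the replicate block. Dscc1, part of a clamp loader, had 67.4, 226 and 88.3 in Ring1 deletion and 260, 353 and 302 in Control, a log2 difference of -1.45 ± 0.42 (SE). Wdhd1 differed by -0.85 ± 0.28. The 3 subunits found only in condensin II did not pass (2 lower at an unadjusted p under 0.05 in limma). Ncapg2 had 360, 570 and 230 in Ring1 deletion and 732, 1086 and 1060 in Control, without overlap, and differed by -1.39 ± 0.32 (limma adjusted p = 0.0607); it was called lower with the replicate block. Ncapd3 differed by -0.47 ± 0.17 and Ncaph2 by -0.29 ± 0.19.

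The SMC5/6 complex, a further SMC complex with a role in DNA repair, differed little. None of its 6 genes passed (1 lower at an unadjusted p under 0.05 in limma, and 0 called with the replicate block), and the differences ran from -0.50 for Nsmce1 to 0.08 for Smc5, with -0.24 ± 0.16 (SE) for Nsmce4a. Of 5 genes of mitotic chromosome structure, 2 fell. Top2a, the topoisomerase of dividing cells, fell, with a log2 difference of -1.57 ± 0.30 (limma adjusted p = 0.0316), whereas Top2b, the form that non-dividing cells use as well, differed by -0.07 ± 0.17. Mki67, which coats mitotic chromosomes, had -1.59 ± 0.32 (limma adjusted p = 0.0355). Neither Top2a nor Mki67 passed without Control replicate 2, Control replicate 3, Ring1 deletion replicate 1 or Ring1 deletion replicate 3.

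**Figure D4:**
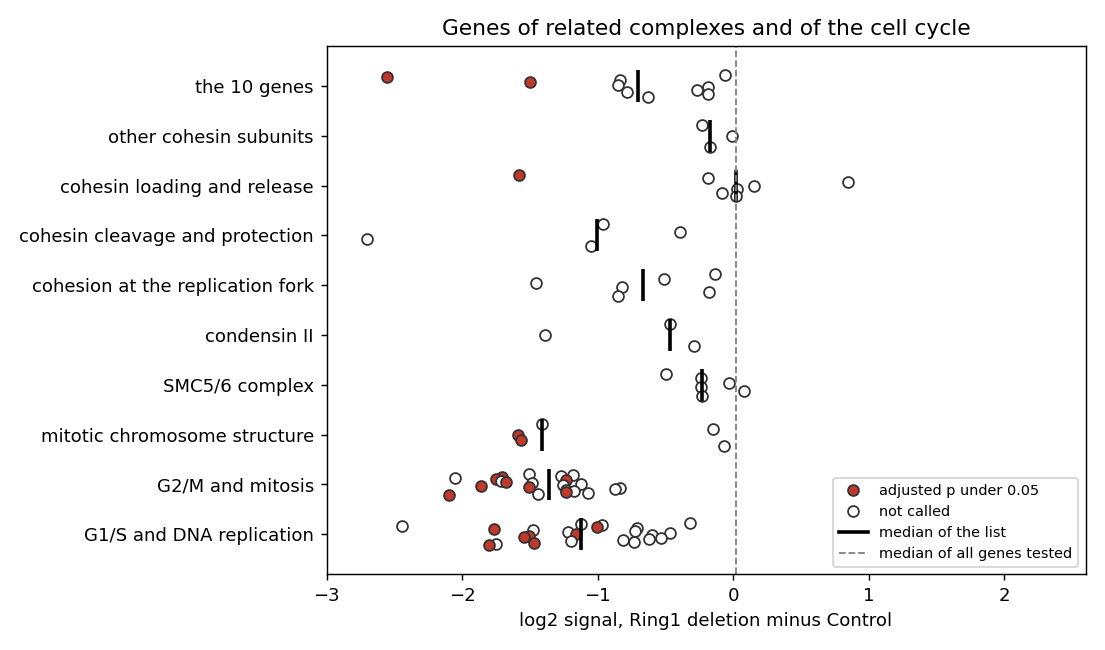
Log2 difference, Ring1 deletion minus Control, of each tested gene (points, filled where the adjusted p was under 0.05) in the 10 genes, the 7 related lists and 2 cell cycle lists, with the median of each list (black bar) and of all genes (dashed line). Of the 10 genes 2 are filled, of the 34 related genes 3, of the G2/M list 8 of 22, and of the G1/S list 7 of 23, all on the lower side.

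The genes with the pattern most like that of Esco2 were sought by Pearson's r of log2 signals over the 6 arrays among 12249 other genes, as a description over 2 groups of arrays. The 8 highest were Sp6 (0.993), Kif11 (0.992), Ubap1 (0.990), Cdkn2d (0.990), Gtf3c6 (0.989), Ercc6l (0.989), Kif5c (0.987) and Stmn1 (0.987). Sp6, a transcription factor of dental epithelium, had a log2 difference of -1.10 ± 0.17 (SE), and Kif11, a spindle motor, of -1.51 ± 0.25 (limma adjusted p = 0.0107 and 0.0156). Ercc6l and Stmn1 also passed, at -1.09 and -1.19. Ubap1, Cdkn2d, Gtf3c6 and Kif5c did not pass (limma adjusted p from 0.0964 to 0.367). Their log2 differences were -0.37, -0.54, -0.58 and -0.625. With group means removed the r was 0.884 for Sp6 and 0.918 for Kif11.

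Among the other 9 genes, Smc2 came highest at rank 43 with r = 0.968, then Ncapg at rank 68, Ncaph at 150, Smc4 at 216 and Ncapd2 at 417. Rad21 stood at rank 1509, Smc1a at 1873, Esco1 at 2995 and Smc3 at 4649. With group means removed, Smc2 still moved with Esco2 across arrays (r = 0.982), as did Rad21 (0.899), but Ncapg did not (-0.188) and Smc3 ran the other way (-0.853). These values rest on 6 arrays and also carry what the arrays share in RNA quality.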

How the data were processed

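RNA from the pulp of 3 Ring1 deletion and 3 Control samples was amplified and hybridised to Affymetrix arrays, per the labels' protocols. The deposited signal intensity of each probe set was made by the authors with MAS5, per the submitters' processing notes. The values have a trimmed mean of 500 on every array (2% trimmed at each end). Detection calls were deposited in a workbook; since its headers show only the group, they were counted per group, and 12 other workbook columns were not used here. In each group 1 column name has another form than the other 2. Versions, scan dates and genome build are not given in the sources used here.

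Names came from the annotation of the array platform: 34958 probe sets had 1 gene symbol, 932 several and 9211 none. Analysis used log2 of the signal, with 1 as the lowest signal. Probe sets Present on at least 3 of 6 arrays were kept, and each gene was read by its kept probe set of highest mean. The comparison used limma 3.58.1 under R 4.3.3 (eBayes with an intensity trend, two-sided, Benjamini-Hochberg over 12250 genes, threshold 0.05), of which 325 were called. The same fit over 25714 probe sets called 376 and gives the SE of further probe sets. It was tested on simulated data. The number of arrays limits the precision. Where a group had no Present call, its level was taken as the higher of its signal and the lowest signal Present on all arrays of the group.

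The genes and lists were chosen with earlier results of these data known. Text names all 10 genes, of each related list those called and otherwise the 2 of smallest p with some further members, and the 8 genes most like Esco2; of the cell cycle lists mainly counts are given. Deviations from group means correlated between same-numbered arrays at 0.485, 0.189 and 0.286, all over 0.1, so the replicate numbers in the titles were taken as pairs in a fit with a replicate block. However, Ring1 deletion replicate 2 with Control replicate 3 gave 0.213, and Ring1 deletion replicate 3 with Control replicate 2 gave 0.117. Both are also over 0.1, so these values do not settle how replicates 2 and 3 pair. Alternatives covered normalization, low signals, detection, probe set choice, the variance prior, array weights, the block and left-out arrays.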

Additional observations from a re-analysis of the deposited data

How the results depend on the processing

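The 10 genes were refitted under 15 alternatives each. Of these 150 values 133 kept direction and side of the threshold, 11 newly passed and 3 no longer passed: Esco2 and Ncapg without Control replicate 2, and Ncapg where a Present call on all 6 arrays was required. Over single left-out arrays Esco1 ran from -0.153 to 0.0412. The other 3 values changed sign, Esco1 to 0.0412 without Ring1 deletion replicate 1 and to 0.00955 without replicate 1 in both groups, and Smc3 to 0.0244 with array quality weights. The cause was not tested. Esco2 ranged from -2.81 to -2.37 on the log2 scale. The replicate block called 6 of the 10 genes lower, 12 genes of the related lists, 1302 of all genes and 1774 probe sets, and array quality weights called 6, 9, 1106 and 1394. A Present call on all 6 arrays left 1 of the 10 genes, 204 genes and 204 probe sets, with fewer features tested. Without an intensity trend 1 related gene and 203 probe sets were called. Leaving out replicate 1 in both groups gave 4 of the 10 genes, 3 related genes, 500 genes and 764 probe sets. Leaving out 1 array at a time gave 0 to 3 of the 10 genes, 1 to 5 related genes, 94 to 300 genes and 80 to 382 probe sets. The lowest counts of the 10 genes and of all genes came without Control replicate 2 and that of probe sets without Ring1 deletion replicate 3. Signals near background, such as the further Esco2 probe set, limit what the arrays can resolve.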
